A study of Mus musculus with 93 samples.

Results

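Oligodendrocytes wrap axons of the central nervous system in myelin, and the 35 genes described here belong to their lineage. Of these, 30 are myelin genes, which code for proteins of compact and noncompact myelin, enzymes of myelin lipids and transcription factors of the lineage, and 5 are genes of oligodendrocyte precursor cells (Pdgfra, Gpr17, Cspg5, Vcan and Ptprz1). The genes were chosen by name from what is known of the lineage, and their rows were found by Ensembl identifier with GENCODE M21 symbols on GRCm38. All 35 were found among the 47643 genes that every mouse's count table holds, and all 35 were among the 23702 genes tested, which reached a count of 10 in 10% or more of the mice.

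The counts were made by RNA-seq of polyA RNA, and each of the 93 mice gave its left brain hemisphere at an age of 8 months. The mice were of C57BL/6J (B6), a classical laboratory strain, or of 1 of the wild-derived strains PWK/PhJ (PWK), WSB/EiJ (WSB) or CAST/EiJ (CAST), and were WT or carried the hemizygous human APPswe and PSEN1dE9 transgenes (APP/PS1), which model the amyloid plaques of Alzheimer's disease. The 16 groups, by strain, genotype and sex, held 6 mice each, but the group of B6 APP/PS1 females held 4 and that of PWK WT females 5. WT mice were littermates of the carriers. The paper states that the PWK carriers were aggressive, were separated from their WT littermates and were housed singly from an earlier age. In PWK, a difference between genotypes and a difference in housing therefore cannot be told apart. The transgenes came from a B6 line and had been backcrossed to each wild-derived strain, so that a carrier of those strains can keep B6 sequence around the insertion that its WT littermates lack. The reads on genes numbered from 53969802 to 106016200 in a mouse, and 12.2% to 18.2% of the reads fell on no gene. The library numbers of the B6 mice lie apart from those of the other strains. A difference between B6 and another strain and a difference between library preparations therefore cannot be told apart. Library numbers of the wild-derived strains form 1 range, from 907 to 977. It was cut here into 3 sets in which no index sequence, the tag of a library, repeats, and 1 set joins both ends of the range. Such sets are inferred and are not a stated batch. Each holds all 3 wild-derived strains, and differences among CAST, WSB and PWK were also computed within the 3 sets. Levels are CPM, the counts scaled to a common library size, on the TMM scale. A gene is called different where the Benjamini-Hochberg adjusted p of the edgeR quasi-likelihood test over all 23702 genes was under 0.05, and differences are log2 fold changes with their standard error (SE).

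Myelin is built in stages. Precursors, which carry the growth factor receptor PDGFRA on their surface and a coat of chondroitin sulfate proteoglycans, divide and stay in the adult brain as a standing pool. As they differentiate they pass through a short stage marked by GPR17, switch on the transcription factor MYRF under the control of SOX10, and then make the membrane proteins and the galactolipids of the sheath. In an intact hemisphere, fewer cells of a type and less RNA per cell cannot be told apart.

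In WT mice, the myelin genes were lower in all 3 wild-derived strains than in B6. Of the 5 precursor genes, 1 was higher and 1 lower in CAST, 3 higher and 0 lower in WSB, and 1 higher and 2 lower in PWK. All 30 myelin genes were lower in CAST, 29 in WSB and 27 in PWK, while 0 were higher in any of them. Over all genes tested, 31.1% were lower and 30.3% higher in CAST, 24.3% lower and 23.2% higher in WSB, and 30.4% lower and 28.8% higher in PWK. The median log2 fold change of the 30 myelin genes was -0.57 in CAST, -0.47 in WSB and -0.48 in PWK, where the median of all genes was within 0.005 of 0. Of the 30 myelin genes, 27 were lower in all 3 strains, against 10.5% of all genes, and of the 5 precursor genes 0 were. These 3 comparisons share the 12 B6 WT mice. The exceptions among the myelin genes were Nkx6-2, called in CAST alone, and Car2 and Nkx2-2, which did not pass the test in PWK. Every B6 WT mouse lay above every CAST mouse for 18 of the 30 myelin genes, above every WSB mouse for 10, above every PWK mouse for 16, and above all mice of the 3 strains for 7. This separation was not computed over all genes tested. The counts are therefore a description, and whether they are unusual for genes lower than in B6 is not known.

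**Figure D1:**
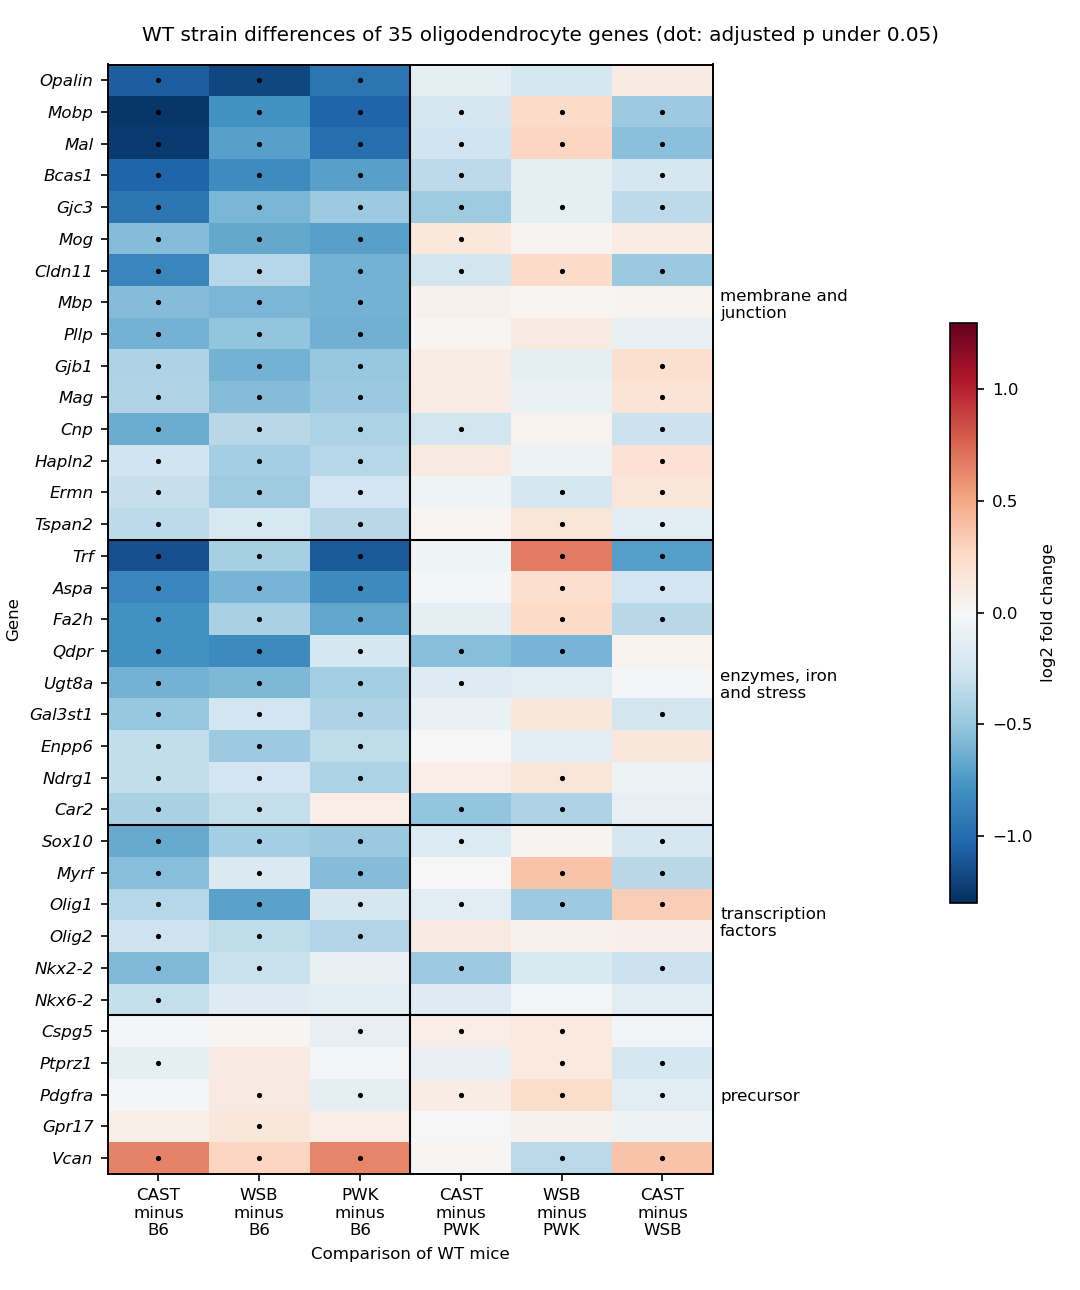
Log2 fold change (color) of the 35 genes (rows, grouped by role) in 6 comparisons of WT mice (columns), where a dot marks an edgeR adjusted p under 0.05. The 3 columns against B6 are negative for 30, 30 and 29 of the 30 myelin genes, and Vcan at the bottom is positive in all 3.

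The 15 membrane and junction proteins of the sheath were all lower than in B6 in each of the 3 strains, with medians of -0.61 in CAST, -0.60 in WSB and -0.61 in PWK. Mobp codes for a small basic protein of compact myelin (chr9:120149707-120181484, plus strand). Its level in WT mice was 847 to 1269 CPM in B6 (median 1024), 349.7 to 511 CPM in CAST (median 414), 528 to 734 CPM in WSB (median 571) and 389.7 to 549 CPM in PWK (median 507). B6 stood above the other strains with no overlap, and CAST was the lowest. The log2 fold change of Mobp against B6 was -1.26 ± 0.05 in CAST, -0.79 ± 0.05 in WSB and -1.04 ± 0.06 in PWK (edgeR adjusted p = 2.3e-36, 4.8e-23 and 8.1e-30). Mal (chr2:127633226-127656695, minus strand), a raft protein that carries membrane to the myelin sheath, ran from 193 to 282 CPM around a median of 224 in B6, from 86.4 to 111 CPM around a median of 93.9 in CAST, from 120.2 to 166 CPM around a median of 135 in WSB and from 92.9 to 129 CPM around a median of 112 in PWK. The B6 mice again lay above all others. Its log2 fold change was -1.24 ± 0.04 in CAST, -0.70 ± 0.04 in WSB and -0.98 ± 0.04 in PWK (edgeR adjusted p = 1.9e-44, 3.8e-27 and 3.8e-36). Opalin (chr19:41061710-41077113, minus strand), a glycoprotein of the paranodal loops and a late marker of maturation, had the lowest level of these 3 genes: 21.8 to 30.2 CPM in B6 (median 22.6), 4.71 to 15.2 CPM in CAST (median 11.9), 7.58 to 13.4 CPM in WSB (median 11.1) and 8.01 to 16.6 CPM in PWK (median 12.5). B6 mice lay above all others here too, and CAST mice spread the most. The difference from B6 was -1.07 ± 0.11 in CAST, -1.18 ± 0.11 in WSB and -0.95 ± 0.11 in PWK (edgeR adjusted p = 1.1e-14, 4.3e-16 and 4.1e-12).

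**Figure D2:**
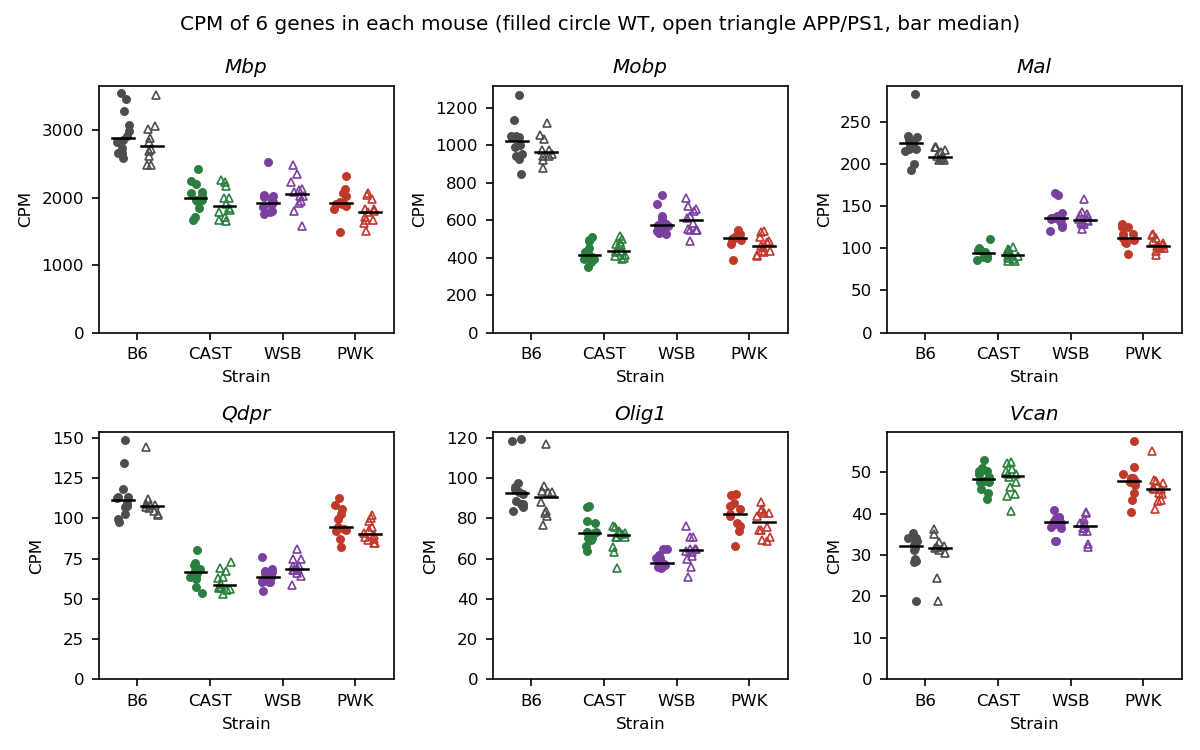
CPM (vertical axes, from 0) of 6 of the genes in each of the 93 mice by strain (horizontal axes), where filled circles are WT mice, open triangles APP/PS1 mice and bars group medians. Mbp, Mobp and Mal are highest in B6 with no overlap among WT mice, Qdpr is low in CAST and WSB, Olig1 is lowest in WSB, and Vcan is lowest in B6.

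The sequences before the transcription starts of these 3 genes are shown because Opalin, Mobp and Mal had the largest mean difference from B6 of the 35 genes over the 3 strains. They are from RefSeq on GRCm38.p6, which is B6 sequence, and end before the annotated gene, which starts ahead of the RefSeq start of Mobp and leaves 215 bases there in place of 250: Opalin at chr19:41077114-41077363 on the minus strand, Mobp at chr9:120149492-120149706 on the plus strand and Mal at chr2:127656696-127656945 on the minus strand. Capitals mark the core letters ACAAAG or ACAATG that SOX proteins bind, on either strand. The letters CTGGCAC or CTGGTAC of the MYRF motif, searched in the same way, have no match in these 3 windows.
Opalin: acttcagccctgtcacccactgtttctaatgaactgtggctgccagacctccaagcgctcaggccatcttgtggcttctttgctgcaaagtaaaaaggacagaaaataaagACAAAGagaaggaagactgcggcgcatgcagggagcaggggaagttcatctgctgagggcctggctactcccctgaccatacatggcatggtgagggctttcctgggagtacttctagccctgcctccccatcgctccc
Mobp: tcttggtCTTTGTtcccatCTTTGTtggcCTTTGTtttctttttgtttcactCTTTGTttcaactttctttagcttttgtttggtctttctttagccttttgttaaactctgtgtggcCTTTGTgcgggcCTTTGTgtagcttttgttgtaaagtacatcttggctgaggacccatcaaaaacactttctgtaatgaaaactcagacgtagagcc
Mal: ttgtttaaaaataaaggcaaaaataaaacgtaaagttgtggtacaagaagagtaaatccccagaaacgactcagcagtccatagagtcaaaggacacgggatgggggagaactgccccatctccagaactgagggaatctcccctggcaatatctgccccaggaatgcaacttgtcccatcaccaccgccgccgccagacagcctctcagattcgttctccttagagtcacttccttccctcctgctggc
The Mobp window holds 6 matches to the SOX letters, the Opalin window 1 and the Mal window 0. Of the 35 genes, 24 have promoters in the table, with 32 start sites. The SOX letters lie in 43.8% of these 32 windows, each taken here as the whole 250 bases before the start, and in 25.2% of all 32851 such windows of the table, and the MYRF letters in 15.6% and 5.9%. A match is a run of letters, not a measured site, and the alleles of CAST, WSB and PWK were not used here.

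Other membrane proteins were lower by smaller steps. Mbp, the myelin basic protein, was the most abundant of the 35 genes per length of exon, and its WT level was 2582 to 3548 CPM in B6 (median 2883), 1669.8 to 2426 CPM in CAST (median 1997), 1752 to 2523 CPM in WSB (median 1924) and 1488 to 2322 CPM in PWK (median 1916). Every B6 mouse lay above every mouse of the other strains, while the other strains overlapped each other. Its log2 fold change against B6 was -0.56 ± 0.06 in CAST, -0.60 ± 0.06 in WSB and -0.62 ± 0.06 in PWK. Bcas1, a marker of oligodendrocytes that are forming myelin, was at a median of 197 CPM in B6, 93.2 in CAST, 124 in PWK and 111 in WSB, with log2 fold changes of -1.04 ± 0.06 in CAST, -0.82 ± 0.06 in WSB and -0.70 ± 0.06 in PWK. No mouse of the wild-derived strains reached the lowest B6 mouse. Mog, the outermost protein of the sheath, followed at -0.56 ± 0.06 in CAST, -0.67 ± 0.06 in WSB and -0.70 ± 0.06 in PWK. Pllp, a proteolipid of myelin rafts, was at -0.61 ± 0.08 in CAST, -0.52 ± 0.08 in WSB and -0.63 ± 0.08 in PWK. Neither gene overlapped between B6 and the rest. Cldn11, which forms the tight junctions of the sheath, and Gjc3, which codes for connexin 29, differed more in CAST (-0.85 and -0.94) than in WSB (-0.37 and -0.60). Gjb1, which codes for connexin 32, was at -0.40 ± 0.08 in CAST, -0.61 ± 0.08 in WSB and -0.50 ± 0.08 in PWK. The smallest differences of this group were those of Hapln2, a link protein of the nodal matrix, in CAST (-0.25), of Tspan2, a tetraspanin, in WSB (-0.21) and of Ermn, a cytoskeletal protein of the outer tongue, in PWK (-0.24), and these passed the test too. Mag, the adhesion protein of the innermost layer, and Cnp, which keeps cytoplasmic channels in myelin open, lay between: the log2 fold changes were -0.39, -0.56 and -0.48 in CAST, WSB and PWK for Mag and -0.65, -0.36 and -0.41 for Cnp.

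Of the 9 genes of lipid and general metabolism, iron and stress, 9 were lower in CAST than in B6, 9 in WSB and 8 in PWK. Trf, which codes for transferrin, the iron carrier made by oligodendrocytes, was at 8.85 to 15.3 CPM in B6 (median 11.3), 3.71 to 6.97 CPM in CAST (median 5.21), 7.53 to 10.5 CPM in WSB (median 8.40) and 3.91 to 6.43 CPM in PWK (median 5.56). CAST and PWK lay wholly under B6, while WSB overlapped it. The log2 fold change was -1.15 ± 0.09 in CAST, -0.43 ± 0.09 in WSB and -1.10 ± 0.09 in PWK (edgeR adjusted p = 9.8e-21, 1.5e-05 and 5.1e-19). Of the 3320 exon bases of Trf, 2108 are shared with Gm20425 on the same strand, and reads on them may have been left uncounted as ambiguous, so the CPM of Trf is uncertain. Aspa, the aspartoacylase that frees acetate for myelin lipids, was at a median of 26.6 CPM in B6, 15.4 in CAST, 15.2 in PWK and 16.9 in WSB, or -0.85 ± 0.06 in CAST, -0.60 ± 0.06 in WSB and -0.83 ± 0.07 in PWK on the log2 scale. The enzymes of the galactolipids were lower in all 3 strains. In CAST, WSB and PWK the log2 fold change of Fa2h, the fatty acid 2-hydroxylase, was -0.79, -0.43 and -0.67. That of Ugt8a, which makes galactosylceramide, was -0.61, -0.58 and -0.45, and that of Gal3st1, which makes sulfatide from it, was -0.49, -0.25 and -0.40. Qdpr, which codes for dihydropteridine reductase, was at 97.8 to 149 CPM in B6 (median 111), 53.5 to 80.6 CPM in CAST (median 66.7), 54.5 to 75.8 CPM in WSB (median 63.5) and 82.3 to 113 CPM in PWK (median 94.4). PWK mice overlapped B6 mice, whereas CAST and WSB mice did not. Its difference from B6 was -0.78 ± 0.05 in CAST, -0.83 ± 0.05 in WSB and -0.23 ± 0.06 in PWK. Car2, the carbonic anhydrase of oligodendrocytes, was lower in CAST (-0.42) and WSB (-0.31), but in PWK its fold change was 0.09 (edgeR adjusted p = 0.117). Enpp6, a choline phosphodiesterase of newly formed oligodendrocytes, and Ndrg1 were lower in all 3, with fold changes of -0.32 and -0.32 in CAST, -0.47 and -0.25 in WSB and -0.33 and -0.41 in PWK.

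The 6 transcription factors had smaller differences, with medians of -0.46 in CAST, -0.31 in WSB and -0.30 in PWK. Sox10, which drives the myelin program through Myrf, was lower in all 3 strains, at -0.65 ± 0.06, -0.44 ± 0.06 and -0.48 ± 0.06. Myrf, the myelin regulatory factor, was at 80.0 to 117 CPM in B6 (median 96.4), 54.1 to 78.5 CPM in CAST (median 65.4), 74.2 to 104 CPM in WSB (median 82.9) and 55.3 to 74.8 CPM in PWK (median 64.9). WSB mice overlapped B6 mice, and CAST and PWK mice lay under them. The difference from B6 was -0.55 ± 0.05 in CAST, -0.19 ± 0.05 in WSB and -0.56 ± 0.05 in PWK. Olig1, a basic helix-loop-helix factor of the lineage, was lowest in WSB, where it ran from 55.4 to 64.9 CPM around a median of 58.0, against a range from 83.5 to 119 CPM around a median of 92.7 in B6. These strains did not overlap, and the difference from B6 was -0.37 ± 0.06 in CAST, -0.69 ± 0.06 in WSB and -0.22 ± 0.06 in PWK. Its relative Olig2, which is needed to specify the lineage, was lower at -0.26, -0.33 and -0.38, and its strains overlapped. Nkx2-2 was lower in CAST (-0.57) and WSB (-0.29), with -0.09 in PWK (edgeR adjusted p = 0.367). Nkx6-2 was lower in CAST (-0.31), with -0.17 in WSB and -0.14 in PWK (edgeR adjusted p = 0.105 and 0.17).

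The 5 precursor genes had fold changes of both signs against B6 in CAST and in PWK, at medians of -0.02 in each, while in WSB all 5 were positive, with a median of 0.11 and 3 called. Vcan, which codes for the proteoglycan versican, was at 18.8 to 35.2 CPM in B6 (median 32.0), 43.5 to 53.0 CPM in CAST (median 48.4), 33.3 to 41.0 CPM in WSB (median 37.9) and 40.4 to 57.6 CPM in PWK (median 48.0). It was higher than in B6 in all 3 strains, and in CAST and PWK every mouse lay above every B6 mouse. The log2 fold change was 0.65 ± 0.06 in CAST, 0.28 ± 0.06 in WSB and 0.63 ± 0.06 in PWK (edgeR adjusted p = 8.3e-17, 4.4e-05 and 7.6e-16). Pdgfra, the receptor that defines precursors, was at 46.1 to 60.6 CPM in B6 (median 56.0), 48.6 to 59.1 CPM in CAST (median 56.3), 56.8 to 65.2 CPM in WSB (median 60.0) and 45.6 to 56.4 CPM in PWK (median 51.5). Every other strain overlapped B6, while all WSB mice lay above all PWK mice. It was higher than B6 in WSB (0.11) and lower in PWK (-0.12), with -0.02 in CAST (edgeR adjusted p = 0.608). Gpr17, a receptor of the committed stage, was higher in WSB (0.14), with 0.08 in CAST and 0.08 in PWK (edgeR adjusted p = 0.234 and 0.219). Gpr17 in WSB was not called when B6 APP/PS1 female 2 and B6 WT male 5 were left out. Cspg5, a proteoglycan also made by neurons, was lower in PWK (-0.11), with -0.02 in CAST and 0.02 in WSB (edgeR adjusted p = 0.653 and 0.605). Ptprz1, a receptor phosphatase also made by astrocytes, was lower in CAST (-0.12), with 0.11 in WSB and -0.02 in PWK (edgeR adjusted p = 0.0884 and 0.759). The lowest Vcan levels, 18.8 and 18.9 CPM, were those of B6 WT male 5 and B6 APP/PS1 female 2, and without these 2 mice Vcan was still called higher in all 3 strains.

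Averaged over the genes of each kind as log2 CPM centred on the mean of all mice, the myelin level of B6 WT mice ran from 0.23 to 0.68 (median 0.41), that of CAST from -0.52 to 0.02 (median -0.18), that of WSB from -0.22 to 0.23 (median -0.09) and that of PWK from -0.32 to 0.09 (median -0.04). The highest WSB mouse lay just under the lowest B6 mouse, and the other strains lower. B6 WT mice were 4.84 within-group SDs above the mean of the other WT strains in the myelin level, and the same difference was -1.78 SDs in the precursor level, or -1.13 SDs with standardized variance-stabilized values. Strain accounted for a median of 71.0% of the variance of log2 CPM over the 30 myelin genes, from 10.9% to 94.4%, and for a median of 34.6% over the 5 precursor genes.

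**Figure D3:**
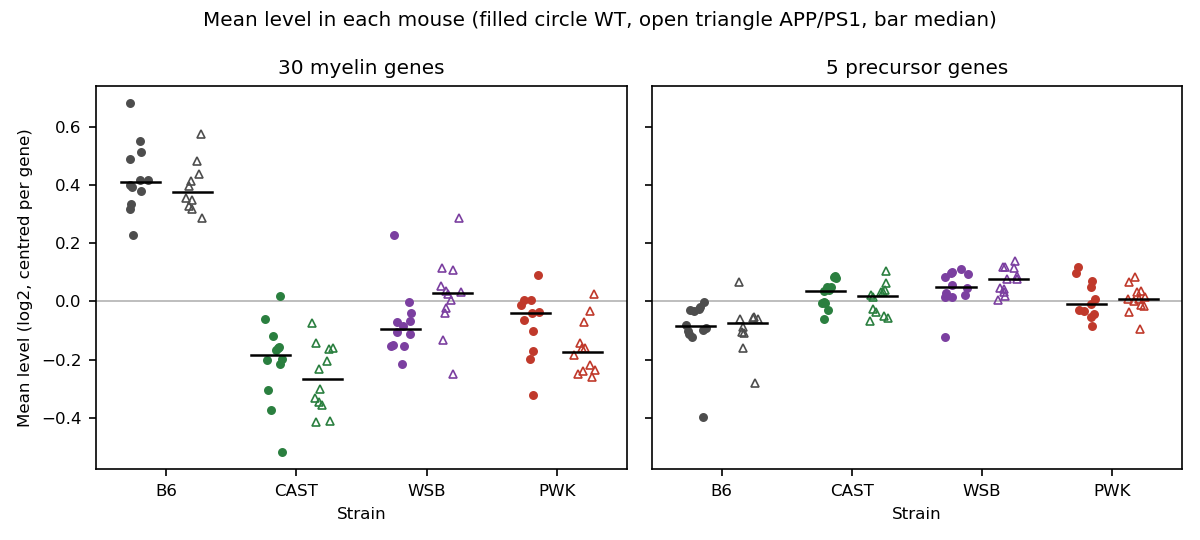
Mean level of the 30 myelin genes (left) and of the 5 precursor genes (right) in each of the 93 mice, as log2 CPM centred per gene on the mean of all mice, by strain, where filled circles are WT, open triangles APP/PS1 and bars group medians. The B6 group medians are the highest on the left, at 0.41 in WT and 0.38 in APP/PS1 mice, and the lowest on the right, where the difference rests largely on Vcan.

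The wild-derived strains also differed from each other, as they did for most genes tested. Over all genes, 77.6% were called in at least 1 of the 3 comparisons among them. The median log2 fold change of the 30 myelin genes was -0.10 for CAST against PWK, 0.03 for WSB against PWK and -0.12 for CAST against WSB. Between CAST and PWK, 15 of the 35 genes were called, 3 higher and 12 lower in CAST, where 27.8% of all genes were higher and 27.1% lower. All 12 lower genes were myelin genes, and of the 3 higher genes 2 were precursor genes (Pdgfra and Cspg5) and 1 was Mog. Qdpr led with -0.55 ± 0.06 (edgeR adjusted p = 1e-14), followed by Car2 (-0.51 ± 0.05), Nkx2-2 (-0.48 ± 0.09), Gjc3 (-0.47 ± 0.05) and Bcas1 (-0.34 ± 0.06). Car2 ran from 114 to 167 CPM around a median of 147 in CAST and from 184 to 240.2 CPM around a median of 204 in PWK. Gjc3 ran from 40.8 to 53.1 CPM around a median of 44.2 in CAST and from 55.3 to 71.1 CPM around a median of 63.1 in PWK. Neither gene overlapped between these strains, and nor did Qdpr, at up to 80.6 CPM in CAST and from 82.3 CPM in PWK. Nkx2-2 was low in both, at medians of 3.82 and 5.62 CPM. With the level of hindbrain Hox genes as a covariate, which is described with those genes, the split of the myelin genes was 7 higher and 10 lower.

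Between WSB and PWK, 18 genes were called, 12 higher and 6 lower in WSB, where 27.5% of all genes were higher and 27.0% lower. Trf was higher in WSB by 0.66 ± 0.09 (edgeR adjusted p = 8.3e-10), and so was Myrf by 0.37 ± 0.05. Qdpr (-0.60 ± 0.06), Olig1 (-0.47 ± 0.06), Car2 (-0.40 ± 0.05) and Vcan (-0.35 ± 0.06) were lower. For Trf, Qdpr and Olig1 the WT mice of WSB and PWK did not overlap. Between CAST and WSB, 22 genes were called, 6 higher and 16 lower in CAST (5 and 14 of them myelin genes), where 27.1% of all genes were higher and 27.2% lower. The largest were Trf (-0.71 ± 0.09), Mal (-0.54 ± 0.04), Cldn11 (-0.48 ± 0.05) and Mobp (-0.47 ± 0.05), all lower in CAST, while Vcan (0.37 ± 0.06) and Olig1 (0.32 ± 0.06) were higher. Trf, Mal, Mobp, Cldn11 and Vcan did not overlap between CAST and WSB WT mice, while Olig1 did. Separation among the wild-derived strains was not computed over all genes tested either, so it is a description. Counting both kinds, 24 of the 30 myelin genes and 4 of the 5 precursor genes were called in at least 1 of the 3 comparisons, near the 77.6% of all genes that were. Being called there is therefore not a result about these genes. Within the 3 library sets, the sign of the difference was the same in all sets for 15 of the 15 genes called between CAST and PWK, 17 of 18 between WSB and PWK (not Gjc3) and 21 of 22 between CAST and WSB (not Gjb1), with 2 to 6 WT mice of a strain in a set. These genes were called in the same mice, which favors equal signs, so the counts are a description and no separate support. The share over all called genes was not computed.

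Other genes of the lineage, which are not among the 35, were counted in the same tests. Of 15 further oligodendrocyte genes, 14 were lower in CAST than in B6, 14 in WSB and 13 in PWK, with medians of -0.46, -0.44 and -0.56, and 1 was higher, Cd9 in CAST (0.13). Apod, which codes for the lipid carrier apolipoprotein D, was at -0.99, -0.76 and -1.66 in CAST, WSB and PWK, and Lpar1, a receptor for lysophosphatidic acid, at -0.74, -0.66 and -1.08. Of 5 further precursor genes, 1 was higher and 1 lower in CAST, 2 higher and 1 lower in WSB, and 2 higher and 1 lower in PWK, and the lower gene was Lhfpl3 each time (-0.29, -0.37 and -0.22). The summed level of these 5 genes was 191 to 383 CPM (median 346) in B6, 309 to 345 CPM (median 327) in CAST, 309.5 to 347 CPM (median 331) in WSB and 311 to 357 CPM (median 344) in PWK, so that the strains overlapped. Of 4 genes known to rise in oligodendrocytes near plaques, 3 were higher and 1 lower in CAST, 1 higher and 3 lower in WSB, and 2 higher and 1 lower in PWK. Klk6, a protease, was the lower gene in CAST and PWK, and had a median of 9.96 CPM in B6, 1.06 in CAST, 1.91 in PWK and 4.59 in WSB, with log2 fold changes of -3.36 ± 0.19 in CAST, -1.05 ± 0.17 in WSB and -2.57 ± 0.19 in PWK. C4b, a complement component, was at 0.84 ± 0.08 in CAST, -1.26 ± 0.08 in WSB and 0.53 ± 0.08 in PWK. The cytokine gene Il33 was at 0.87 ± 0.05 in CAST, -0.58 ± 0.05 in WSB and 0.06 ± 0.05 in PWK. Serpina3n, a protease inhibitor, was at 0.75 ± 0.06 in CAST, 1.08 ± 0.06 in WSB and 0.32 ± 0.06 in PWK. Il33 was not called in PWK.

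Markers of other cells differed from B6 too, but not in 1 direction, and their part in the differences of the 35 genes was not tested. All 5 endothelial markers were lower in CAST, 5 in WSB and 4 in PWK, with medians of -0.34, -0.46 and -0.61. Their summed level was 177 to 219 CPM (median 202) in B6, 145 to 168 CPM (median 156) in CAST, 133 to 164 CPM (median 148) in WSB and 148 to 182 CPM (median 164) in PWK. Of 9 microglia markers, 7, 8 and 5 were lower in CAST, WSB and PWK and 1, 1 and 2 higher. The 7 neuron markers held 1 lower gene in CAST, 2 higher in WSB and 4 higher in PWK, and their summed level was 5108 to 5781 CPM (median 5545) in B6, 4993 to 5742 CPM (median 5428) in CAST, 5338 to 5962 CPM (median 5681) in WSB and 5371 to 5879 CPM (median 5696) in PWK. Of the 6 astrocyte markers, 4 were higher and 1 lower in CAST, 1 higher and 3 lower in WSB, and 3 higher and 2 lower in PWK. Cerebellar neuron markers were highest in PWK, at 606 to 973 CPM (median 663) in PWK against 379 to 526.3 CPM (median 479.6) in B6, and of the 4, 3 were higher and 1 lower in PWK. Of 4 choroid plexus markers, 3, 1 and 3 were lower, and of 4 striatal markers 1 was lower in each strain. Markers of Schwann cells, the myelin cells of nerves outside the brain, were low in WT mice. Of the 4 markers 3 were tested, and their summed level was at most 3.78 CPM in a WT mouse. It reached 12.7 CPM in a CAST APP/PS1 mouse.

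The level of hindbrain genes differed between mice of a group. Hox genes are transcribed in the hindbrain and spinal cord and not in the forebrain, and the summed level of 9 of them in WT mice was 0 to 25.6 CPM (median 7.03) in B6, 0.0665 to 12.8 CPM (median 3.17) in CAST, 0.219 to 9.31 CPM (median 1.26) in WSB and 1.42 to 16.6 CPM (median 10.9) in PWK. In APP/PS1 mice it was 3.15 to 22.5 CPM (median 10.4) in B6, 0.0297 to 14.6 CPM (median 1.71) in CAST, 0.0266 to 14.8 CPM (median 5.89) in WSB and 0.696 to 12.1 CPM (median 4.95) in PWK. The groups overlapped widely. Of the 9 genes, 1 was lower in CAST than in B6, 8 in WSB and 0 in PWK. Within groups, the log2 Hox level accounted for 33.7% of the variance of the mean myelin level and for 0.123% of that of the mean precursor level over the 93 mice, and for 30.4% and 0.653% without the 2 mice farthest from its median, B6 WT female 3 and WSB APP/PS1 female 1. Added to the edgeR fit after the data were seen, the log2 Hox level had a positive slope for 22 of the 30 myelin genes and a negative slope for 0, where 3.54% of all genes had a positive slope. Among the precursor genes 1 slope was called, that of Cspg5, which was negative and was not called without these 2 mice. Mal and Mobp had slopes of 0.02 ± 0.01 and 0.04 ± 0.01 in log2 CPM per unit of log2 Hox level (edgeR adjusted p = 0.00459 and 1.2e-07). With the covariate in the fit, the median difference of the myelin genes from B6 in WT mice was -0.54 in CAST, -0.41 in WSB and -0.49 in PWK, where 30, 29 and 27 of the 30 were lower. The first principal component of the within-group deviations of the 30 myelin genes held 54.8% of their variance, so that much of the spread between mice of a group was shared by these genes.

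**Figure D4:**
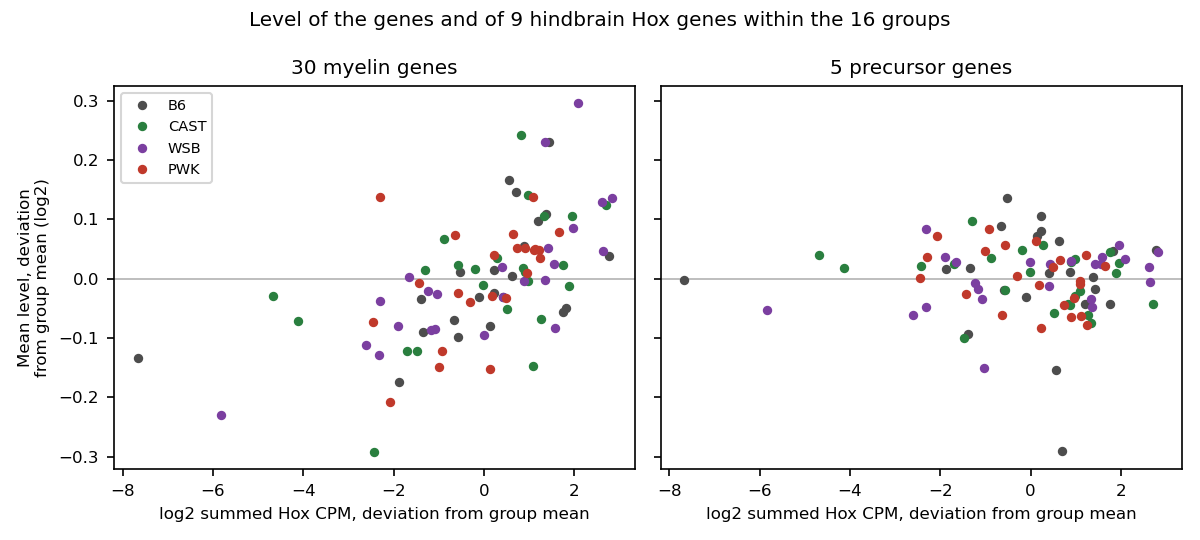
Mean myelin level (left) and mean precursor level (right) of each of the 93 mice as a deviation from its group mean (log2 CPM, vertical axes) against the deviation of its log2 summed CPM of 9 Hox genes (horizontal axes), colored by strain. The myelin level rises with the Hox level, which accounts for 33.7% of its within-group variance, and the precursor level does not, at 0.123%.

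At 8 months of age, the APP/PS1 transgenes gave 0 called differences among the 35 genes in each of the 4 strains, by edgeR and by DESeq2. Of all genes tested, 0.215% were higher and 0.00844% lower in B6, 0.544% and 0.114% in CAST, 0.308% and 0.0675% in WSB, and 1.57% and 0.468% in PWK. Against this background a count of 0 in 35 is not a result about these genes. At an unadjusted p under 0.05 there were 1, 3, 8 and 6 of the 35 in B6, CAST, WSB and PWK, against 5.61%, 7.80%, 7.70% and 12.0% of all genes. APP/PS1 and WT mice overlapped for all 35 genes in all 4 strains. The overlap was not computed for other genes, so it too is not a result about these genes. The fold changes ran from -0.14 to 0.08 in B6, -0.16 to 0.08 in CAST, -0.03 to 0.22 in WSB and -0.19 to 0.08 in PWK. No 95% interval of a gene went outside -0.31 to 0.26 in B6, -0.37 to 0.26 in CAST, -0.15 to 0.40 in WSB and -0.37 to 0.26 in PWK. The median log2 fold change of the 30 myelin genes was -0.03 in B6, -0.06 in CAST, -0.09 in PWK and 0.09 in WSB. It was positive for 29 of the 30 in WSB and negative for 29 of the 30 in PWK, 26 in CAST and 23 in B6, with no gene called. The mean myelin level of APP/PS1 mice ran from 0.29 to 0.57 (median 0.38) in B6, from -0.42 to -0.07 (median -0.27) in CAST, from -0.25 to 0.29 (median 0.03) in WSB and from -0.26 to 0.03 (median -0.17) in PWK, and overlapped that of the WT mice of each strain. These genes vary together between mice, so the number of genes with 1 sign is no count of separate observations. In PWK the genotypes also differed in housing, and the part of housing in the PWK values was not tested. The 9 Hox genes had median log2 fold changes of 0.20 in B6, -0.54 in CAST, -0.62 in PWK and 1.10 in WSB, with 0 called. With the Hox level as a covariate the medians of the myelin genes were 0.05 in WSB, -0.06 in PWK, -0.05 in CAST and -0.06 in B6. The precursor genes had medians of -0.01 in B6, -0.03 in CAST, 0.01 in PWK and 0.03 in WSB. The test of the difference in response between strains called 0 of the 35, where it called 0.473% of all genes, and at an unadjusted p under 0.05 it gave 8 of the 35 and 8.63% of all genes.

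Single genes had small responses. Aspa had the smallest adjusted p for a difference in response (edgeR adjusted p = 0.192), with -0.14 ± 0.07 in B6, -0.04 ± 0.06 in CAST, -0.19 ± 0.07 in PWK and 0.14 ± 0.06 in WSB. Its level in PWK was 12.7 to 18.2 CPM (median 15.2) in WT and 11.2 to 16.01 CPM (median 13.1) in APP/PS1 mice, and the groups overlapped. Enpp6, made as new oligodendrocytes form, was at -0.0022 ± 0.08 in B6, -0.16 ± 0.08 in CAST, -0.09 ± 0.08 in PWK and 0.21 ± 0.08 in WSB. In WSB it was 4.64 to 8.23 CPM (median 6.07) in WT and 5.89 to 8.58 CPM (median 6.99) in APP/PS1 mice. The WSB value of Enpp6 did not pass the test (edgeR adjusted p = 0.363). Mal was at -0.12 ± 0.04 in PWK (edgeR adjusted p = 0.15), and without PWK WT female 4, the PWK WT mouse with the lowest myelin level, it was the only one of the 35 called there, at -0.15 (edgeR adjusted p = 0.0311). Mobp, Trf and Cspg5 lie on chromosome 9, where the carriers of the wild-derived strains can differ from their littermates by B6 sequence near the transgenes. The response of Mobp was -0.05 ± 0.06 in B6, 0.07 ± 0.05 in CAST, -0.09 ± 0.06 in PWK and 0.02 ± 0.05 in WSB. For Trf it was 0.08 ± 0.09 in B6, -0.06 ± 0.09 in CAST, 0.08 ± 0.09 in PWK and 0.07 ± 0.09 in WSB, while for Cspg5 it was -0.05 ± 0.03 in B6, -0.03 ± 0.03 in CAST, 0.03 ± 0.03 in PWK and 0.0021 ± 0.03 in WSB. None of these was called.

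**Figure D5:**
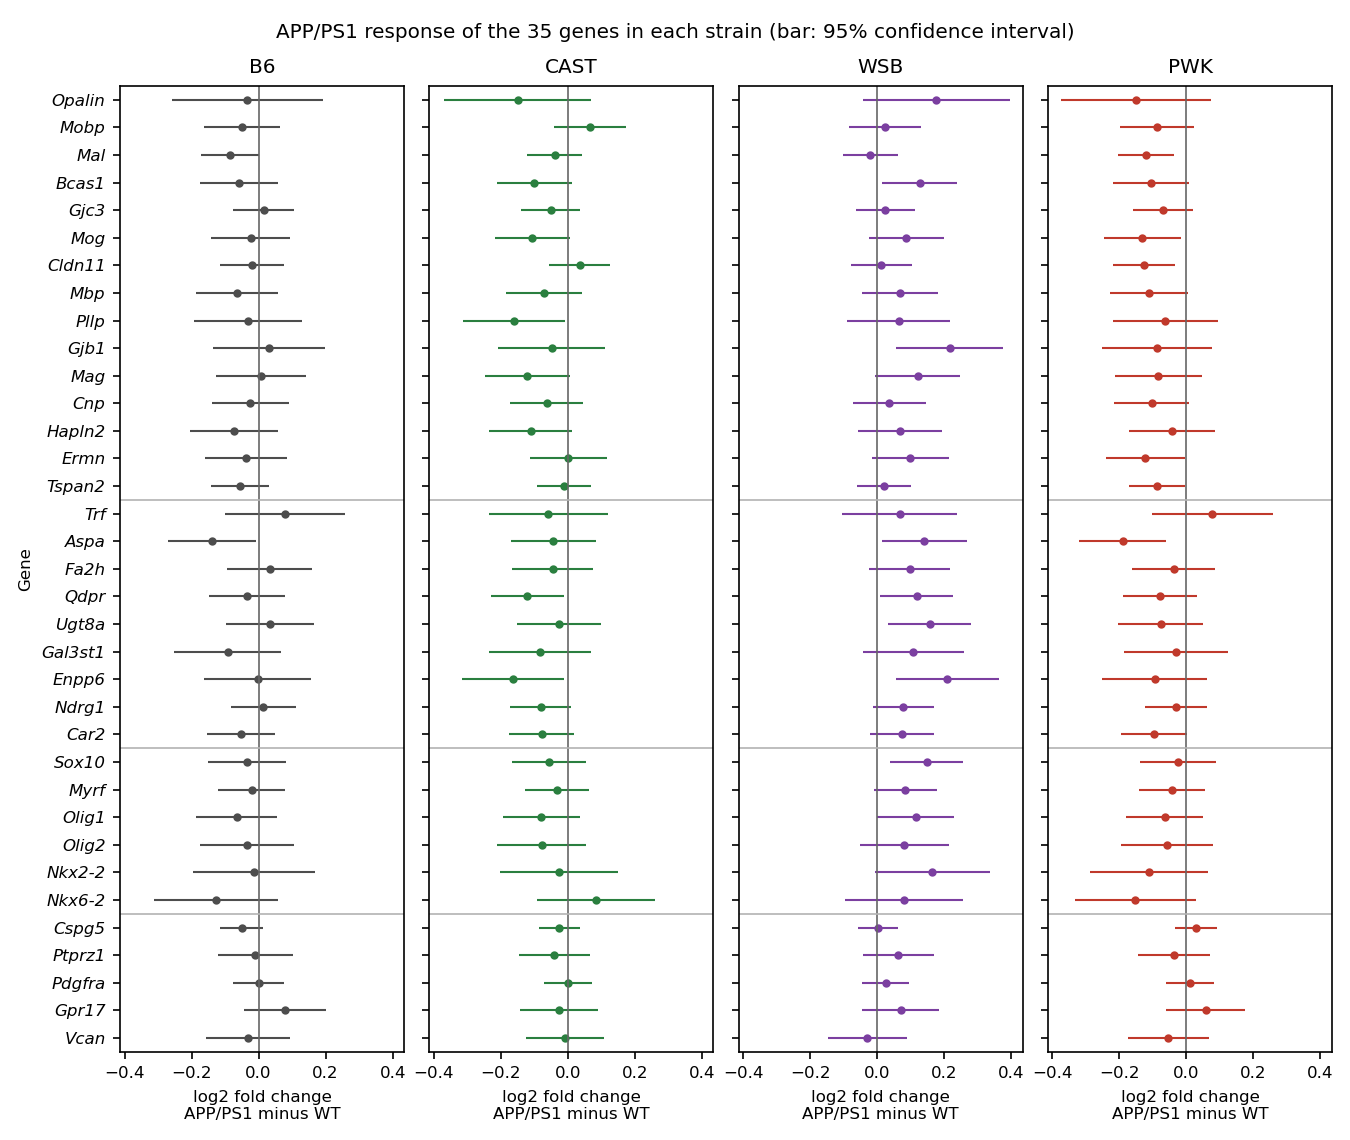
Log2 fold change of APP/PS1 against WT mice (horizontal axes) for each of the 35 genes (vertical axis, grouped by role) in each strain (panels), where points are fitted values and bars their 95% intervals. Most myelin genes lie above 0 in WSB and under 0 in the other strains, with points between -0.19 and 0.22, and none passed the edgeR test after adjustment over all genes.

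Genes that respond to plaques moved in the same tests. Of 9 microglia markers, 5 were higher in APP/PS1 mice in B6, 5 in CAST, 7 in PWK and 6 in WSB. Of the 4 genes known to rise in oligodendrocytes near plaques, which astrocytes or microglia also make in part, C4b was higher in B6 (0.42), CAST (0.39) and PWK (0.34), with 0.29 in WSB (edgeR adjusted p = 0.123). Serpina3n was higher in CAST (0.29) and PWK (0.31). Klk6 and Il33 were called in no strain. Among the 15 further oligodendrocyte genes, Cd9, a tetraspanin that microglia also make, was higher in PWK (0.23), and of the 5 further precursor genes 0 were called in any strain.

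Of the 35 genes, 1 was called different between the sexes. Aspa was lower in females than in males by edgeR, at -0.13 ± 0.03 (edgeR adjusted p = 0.0127), where 1.03% of all genes were higher and 0.738% lower in females. In females and males its median over both genotypes was 24.7 and 27.1 CPM in B6, 13.3 and 15.6 in CAST, 17.7 and 18.9 in WSB and 13.2 and 14.9 in PWK. The sexes overlapped in each strain. Tspan2 was called by DESeq2 and not by edgeR (-0.07, edgeR adjusted p = 0.0532). At an unadjusted edgeR p under 0.05 there were 12 of the 35, against 14.2% of all genes. The fold change was negative, or lower in females, for 28 of the 35 and positive for 7. As these genes vary together between mice, such numbers are no count of separate observations. The sex difference in WT mice differed between strains for 0 of the 35 genes by edgeR and by DESeq2, against 0.0338% of all genes by edgeR. At an unadjusted edgeR p under 0.05 it differed for 0 of the 35, against 7.36% of all genes.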

How the data were processed

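RNA was measured in the left hemisphere of 93 mice. The authors isolated RNA with the MagMAX mirVana kit, prepared polyA libraries with the KAPA mRNA HyperPrep kit, trimmed reads with Trimmomatic, aligned them with STAR to the mm10 genome (B6) or to a genome of the strain, and made the deposited counts with HTSeq on Ensembl 84. The HTSeq strand setting is not given in the sources used here. The rows for reads on no gene, ambiguous reads (2.98% to 5.26%) and reads not aligned uniquely (8.91% to 12.7%) were left out of library sizes. The share not aligned uniquely was higher in every CAST and PWK mouse than in every B6 and WSB mouse. The part of alignment in the strain differences was not tested. Replicates are separate mice, and no 2 libraries were identical.

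Genes that reached a count of 10 in 10% or more of the mice were tested with edgeR 4.0.16 (R 4.3.3): TMM, 16 group means of strain, genotype and sex, quasi-likelihood tests and Benjamini-Hochberg adjustment over 23702 genes. WT strains were compared pairwise, APP/PS1 with WT in each strain, and females with males, with contrasts averaged over the sexes or the groups. Differences in response and in sex difference between strains were F tests. The scripts were tested on simulated data. Alternatives were DESeq2 1.42.0, DESeq2 size factors, no count filter, a replicate block, the library set as a covariate, mice of the strains compared only, mice left out, and, chosen after seeing the data, the log2 Hox level as a covariate. Tables and figures were made with Python 3.11.15, numpy 2.4.6, pandas 2.3.3, scipy 1.17.1 and matplotlib 3.10.9. The sets of libraries were inferred from the library numbers and index sequences, not from a stated batch. Same-numbered mice did not deviate together, so replicate numbers were not taken as pairs.

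All 35 genes were described by role, and those past the threshold with the largest fold changes in each comparison got full values. The genes on chromosome 9 got their response in each strain, and other lists got counts with up to 4 values. The genes and lists were chosen with earlier results of these data known.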

Additional observations from a re-analysis of the deposited data

Results flagged for a closer look

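The mean level of the 30 myelin genes and of the 5 precursor genes was examined for mice that stand far from the others within the 16 groups of mice. Of the 32 group values, 4 held such a mouse, where chance gives about 1 in 20. The groups are small, and an excess over chance was not tested. PWK WT female 4 had a mean myelin level of -0.320 (log2 CPM centred per gene on the mean of all mice), under the other females of its group. WSB WT female 1, at 0.229, and WSB APP/PS1 male 3, at 0.286, lay above their groups in the same measure. B6 WT male 5 had a mean precursor level of -0.397, under the other B6 WT males. Without PWK WT female 4, 1 of the 35 genes (Mal) was called in the APP/PS1 response of PWK.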

How the results depend on the processing

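For the 35 genes, the 173 results of a gene called in a comparison gave 2627 values in the alternatives. Of these, 2602 kept their direction and their side of the threshold, 25 were no longer past it, and 0 reversed. Many of these values come from fits that share nearly all mice with the main fit. The 4 B6 APP/PS1 females, each left out in 1 fit, enter no WT comparison, so that these fits could change it little. Genes called only in an alternative are not in this tally. The count of genes called between females and males, 1 by edgeR, was 2 by DESeq2, 2 without B6 APP/PS1 female 2 and B6 WT male 5, and 2 with the Hox level as a covariate, with or without the 2 mice farthest from its median (Mobp, 0.08 higher in females). Single mice were left out in the 2 groups of under 6 mice, the 4 B6 APP/PS1 females and the 5 PWK WT females, and no CAST or WSB mouse was left out. Over these 9 fits the count between the sexes was 1 to 2. The count in the APP/PS1 response of PWK was 0 to 1, with 1 without PWK WT female 4 and 0 in the other fits. The fits gave 14 to 15 genes between CAST and PWK, 17 to 21 between WSB and PWK and 22 to 23 between CAST and WSB. The cause of these changes was not tested, and fewer mice entered the fits that left some out.

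The 45 same-numbered pairs of groups had a mean correlation of deviations of 0.00812, with 0 over 0.1, so the numbers do not pair the mice. With a replicate block, 32, 32 and 30 genes were called between CAST, WSB and PWK and B6, 23 between CAST and WSB (22 without the block), 15 between CAST and PWK, 18 between WSB and PWK, 0 in each response and 1 between the sexes. A library set covariate was not possible for B6. The difference of B6 WT mice from the others was 4.55 and -1.13 SDs for the mean of standardized variance-stabilized values of the myelin and precursor genes. The SE of differences from B6 was larger for Opalin (0.11) than for the more abundant Mal (0.04). It was smaller for Trf than for Opalin, though Trf had the lower level in WT mice, so the SE did not follow the reads alone.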
